A study of Danio rerio with 3 samples.

Results

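Cytosolic ribosomal proteins are the protein parts of the ribosome that translates nuclear-encoded mRNAs, named Rps in the small subunit and Rpl in the large one. Their genes were taken by name from the annotation of the array's probes: symbols starting with rps, rpl or rplp and a number, and rpsa, without the rps6k kinases and rps19bp1. This gave 75 of 15548 named genes, read by 128 of 43603 probes. By their symbols alone, 30 of the 75 were assigned to the small subunit and 45 to the large subunit. Other genes that the naming rule would take were not analysed here.

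The arrays compared embryos in which slc2a10, which encodes the facilitative glucose transporter GLUT10, was knocked down with control embryos. Wild type embryos of strain Ab received 7.5 ng of a morpholino (MO, an antisense oligomer) over the donor splice site of slc2a10 exon 2. These were sorted at 48 hours post fertilization (hpf) for a Class 1 phenotype, and used as 3 replicates of 10 to 15 whole embryos each. Control embryos received 5 ng of a control MO, and their RNA was combined into 1 pool that was present on all 3 two-colour arrays. The slc2a10 MO RNA carried Cy3 on replicates 1 and 3 and Cy5 on replicate 2. MO dose and sorting by phenotype therefore differed between the groups together with the target. In RNA of whole embryos, fewer cells of a type and less RNA per cell cannot be told apart. The deposited ratios hold no signal levels, so the presence of tissue markers could not be checked.

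Most ribosomal proteins are needed in equal numbers for each ribosome, and their mRNAs are among the most abundant in growing cells. In mammals these mRNAs start with a pyrimidine tract (the TOP motif) through which mTOR signalling and Larp1 set how well they are translated, so protein output can change while the mRNA does not. In zebrafish, loss of several ribosomal proteins gives small heads, pale blood and activation of p53, and in humans heterozygous mutations in a set of these genes cause Diamond-Blackfan anaemia.

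Values are log ratios of knockdown embryos and control pool on the same array, read as log2. The log base was not given, so all folds rest on log2, and a natural log or log10 would make each of them larger. Replicate 2 was turned so that the 3 arrays run in the same direction. Which direction that is could not be settled from the sources used here. Signs are therefore given relative to slc2a10, whose single probe had 0.50, 0.42 and 0.47 on replicates 1, 2 and 3. Positive values (the slc2a10 side) mean higher in knockdown embryos if the ratios are Cy3 over Cy5, while Cy5 over Cy3 would put the same genes higher in the control pool. Means are given ± SD of the 3 arrays, and the test is limma's against 0 with Benjamini-Hochberg adjustment over all 15548 named genes. A gene with an adjusted p under 0.05 is said to be called. Since 1 pool stands for the control group, the p-values cover the spread of the knockdown replicates alone.

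The ratios of cytosolic ribosomal protein mRNAs between knockdown embryos and control pool lay mostly close to 0. Each array's ratios centre on 0, so this is relative to the other genes, and a change in total mRNA would not show. Signal and saturation are unknown, and whether saturation narrowed these ratios was not tested. Of the 75 genes 5 were called, which is 6.67%, against 19.3% of all named genes. On the slc2a10 side 3 were called (4% of the members, 11.1% of all named genes), and on the opposite side 2 (2.67% and 8.16%). The mean ratios of the 75 ran from -0.24 to 0.38 with a median of -0.024, while the median of all named genes was 0.0066. A mean within 0.1 of 0 was found for 54 members (72.0%, against 57.4% of all named genes). No member's gene mean reached 1.5-fold. The 95% limma interval of the gene mean lay inside 1.5-fold in both directions for all 75 members and for 95.6% of all named genes. These intervals use variances pooled over genes and averages over a gene's probes. A single rpl30 probe, described below, had a mean of 0.75 with an interval of 0.62 to 0.88, which lies beyond 1.5-fold.

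**Figure D1:**
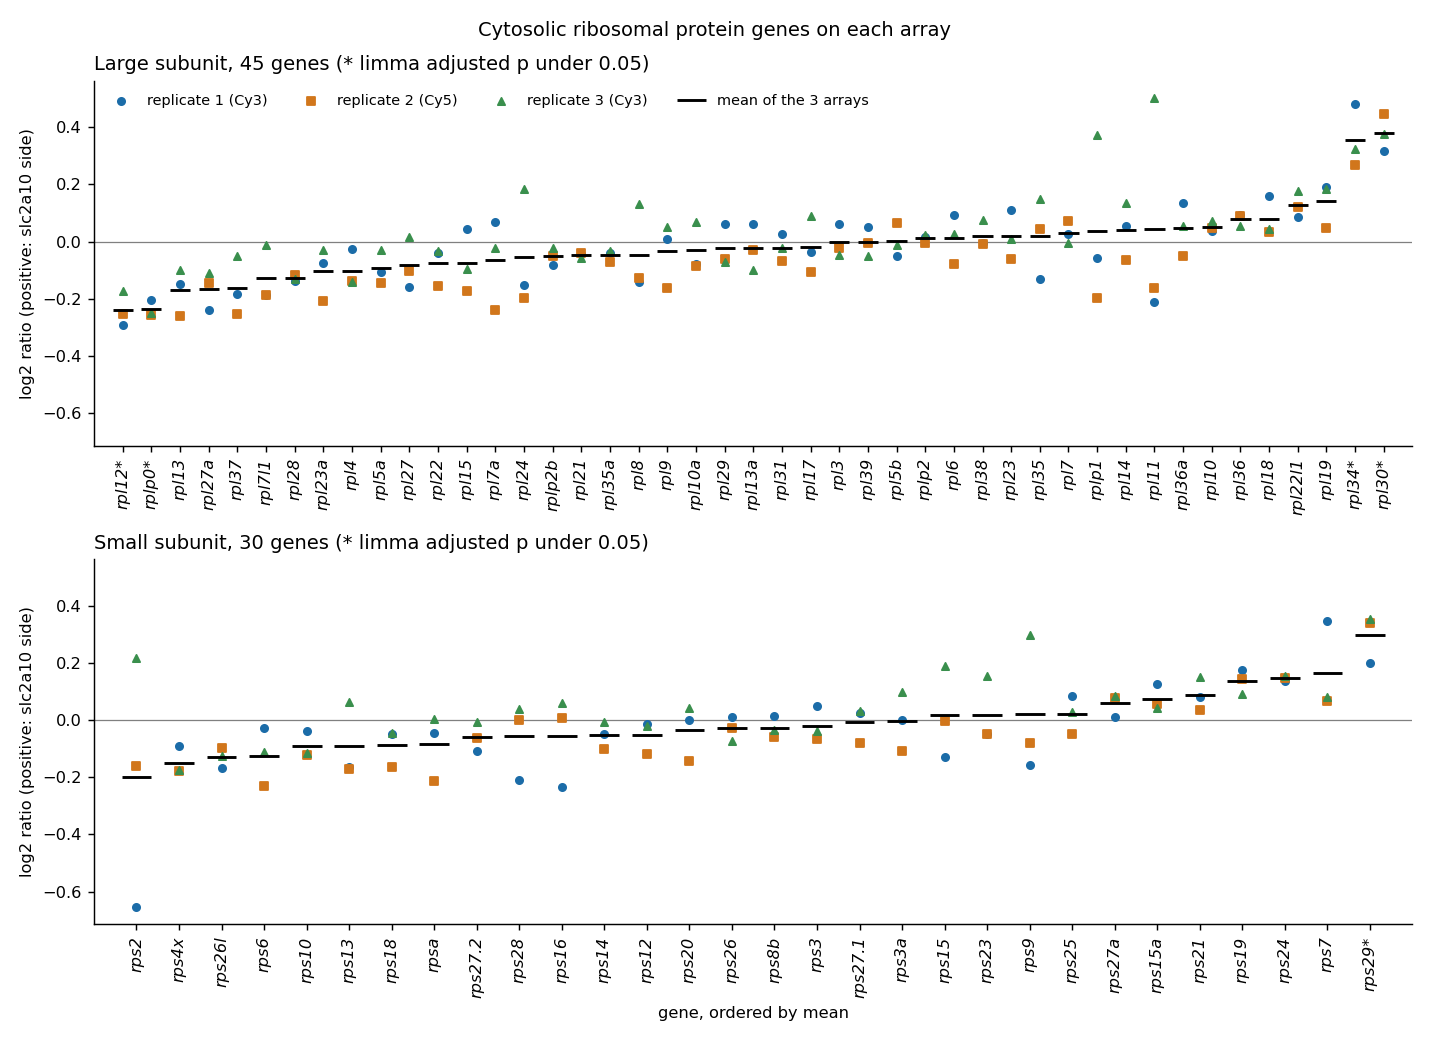
Log2 ratio (vertical axis, positive on the slc2a10 side) of each of the 45 large-subunit and 30 small-subunit genes, ordered by mean, with 1 symbol per array and a bar at the mean of the 3 arrays; the dye in brackets is that of the slc2a10 MO sample. Most bars lie within 0.1 of 0, the 5 called genes stand at the ends of the large-subunit row and at the right end of the small-subunit row, and single symbols such as rps2 on replicate 1 and rpl11 on replicate 3 lie far from their gene's other arrays.

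The subunits are described side by side, and their difference was not tested. The median was -0.023 for the 45 large-subunit genes, of which 4 were called (8.89%), and -0.029 for the 30 small-subunit genes, of which 1 was called (3.33%), where 19.3% of all named genes were. Among large-subunit genes 18 had a mean above 0 and 27 below, and among small-subunit genes 11 above and 19 below. On all 3 arrays the same sign was seen for 36 members (48.0%, against 50.1% of all named genes), 14 of them positive and 22 negative.

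The largest value of the family belonged to rpl30, a large-subunit protein that in yeast also binds its own transcript. Replicates 1, 2 and 3 gave 0.32, 0.45 and 0.37, which average 0.38 ± 0.07 (1.30-fold, limma adjusted p = 0.0023). All 3 arrays were on the slc2a10 side. This mean joins probes that disagreed. A probe with no accession in the annotation gave 0.70, 0.80 and 0.75, whereas the probe for the rpl30 RefSeq mRNA gave -0.067, 0.092 and 0.0023. When only probes with a RefSeq mRNA accession were fitted, rpl30 was at 0.0092 and did not pass (limma adjusted p = 0.93). Whether the probe without an accession reads rpl30 mRNA was not tested.

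For rpl34, another large-subunit gene, the single probe gave 0.48, 0.27 and 0.32. The mean was 0.36 ± 0.11 (1.28-fold, limma adjusted p = 0.0048), with all arrays above 0. The small-subunit gene rps29, whose protein is a small zinc-binding component, had 0.20, 0.34 and 0.35. Its mean was 0.30 ± 0.08 (1.23-fold, limma adjusted p = 0.0078), again with no array below 0. Without replicate 2, which alone has the reversed dyes, rps29 was at 0.28 and no longer passed (adjusted p = 0.067).

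The 2 called genes of the opposite side stand together in the ribosome. The stalk of the large subunit, which recruits translation factors, is built on Rplp0 with Rplp1 and Rplp2 attached, and Rpl12 lies at its base. The gene rpl12 had -0.29, -0.25 and -0.17 and averaged -0.24 ± 0.06 (1.18-fold, limma adjusted p = 0.016). The gene rplp0 had -0.20, -0.26 and -0.25 and averaged -0.24 ± 0.03 (1.18-fold, limma adjusted p = 0.014). Both lay below 0 on every array. Without replicate 2 they kept nearly the same values (-0.23 each) and did not pass (adjusted p = 0.12 for rpl12 and 0.13 for rplp0). The other stalk genes were not called. Rplp2 had 0.015, -0.0037 and 0.024, and its paralog rplp2b -0.082, -0.051 and -0.022. Rplp1 was at -0.058, -0.20 and 0.37, so its arrays differed in sign.

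Leaving aside rps2, which is given with the variable genes, these were the uncalled genes with the largest means on each side. On the slc2a10 side these were rps7 (0.17 ± 0.16, limma adjusted p = 0.14), rps24 (0.15 ± 0.01, adjusted p = 0.085), rpl19 (0.14 ± 0.08, adjusted p = 0.12), rps19 (0.14 ± 0.04, adjusted p = 0.11) and rpl22l1 (0.13 ± 0.05, adjusted p = 0.13). On the opposite side they were rpl13 (-0.17 ± 0.08, adjusted p = 0.070), rpl27a (-0.16 ± 0.07, adjusted p = 0.070), rpl37 (-0.16 ± 0.10, adjusted p = 0.093) and rps4x (-0.15 ± 0.05, adjusted p = 0.088). All 9 had 1 sign on the 3 arrays, as had rps26l, rpl7l1 and rpl28, each at -0.13 and uncalled. At an unadjusted p under 0.05 there were 16 members (21.3%, against 31.4% of all named genes).

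The number called moved with the handling of the arrays. Leaving out replicate 1 gave 5 called members (20.7% of all named genes were called), leaving out replicate 2 gave 2 (10.0%) and leaving out replicate 3 gave 6 (16.3%), with rps2 added. With array weights 18 members were called (33.5% of all named genes), 6 with slc2a10 and 12 against it. The ordinary t statistic, which does not pool variances, called 0 members and 0.0129% of all named genes.

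The 5 members with the largest spread were all genes with a single probe. Rps2, a small-subunit protein near the mRNA entry, had -0.66, -0.16 and 0.22 (SD 0.44), the widest range of the family. Its mean was -0.20 (limma adjusted p = 0.38). Without replicate 3 it stood at -0.41, a called value (limma adjusted p = 0.028), whereas leaving out replicate 1 moved it to 0.028. Rpl11 had -0.21, -0.16 and 0.50 (SD 0.40), rps9 -0.16, -0.081 and 0.30 (SD 0.24), and rpl24 -0.15, -0.20 and 0.18 (SD 0.21). With rplp1, all 5 were below 0 on replicates 1 and 2 and above 0 on replicate 3. For these genes the mean says little about any single replicate.

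Over the whole family the arrays also differed. Replicate 3 held the highest of the 3 values for 42 of the 75 members (56.0%, against 32.2% of all named genes), and replicate 2 the lowest for 42 (56.0%, against 30.5%). The median over the members was -0.027 on replicate 1, -0.069 on replicate 2 and 0.024 on replicate 3, while that of all named genes was 0.015, 0.0076 and 0.00072. On replicate 2 only 18 members were above 0, against 35 on replicate 1 and 41 on replicate 3. Replicate 2 is also the array with the other dye order. Replicates 1 and 3 together, which share a dye order, gave a member median of 0.0026 and 2 called genes, rpl30 and rpl34 (10.0% of all named genes were called there). Replicate and dye order cannot be told apart for replicate 2. The spread of the members within an array (SD 0.16, 0.13 and 0.14 on replicates 1, 2 and 3) was smaller than that of all named genes (0.24, 0.22 and 0.22).

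Across the 75 genes, the values of replicates 1 and 2 correlated at r = 0.64, those of replicates 2 and 3 at 0.49 and those of replicates 1 and 3 at 0.21. Over all named genes the same correlations were 0.74, 0.77 and 0.57. These describe genes measured on shared arrays against a shared control pool, and genes are not independent replicates.

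Several probes were available for 36 members, and their means had 1 sign for 20 of these genes. The means of a gene's probes spanned less than 0.1 for 25 genes, 0.1 to 0.2 for 6 and more than 0.2 for 5. The median span was 0.070. Fitted probe by probe over all 43603 probes, 8 of the 128 member probes were called (11.7% of all probes were), 5 on the slc2a10 side (6.18% of all probes) and 3 opposite (5.49%). They were the single probes of rpl12, rplp0, rpl34 and rps29 and 1 probe each of rpl30, rps24, rps7 and rps26l.

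The 5 genes with a span above 0.2 were rpl30, rps24, rps7, rps26l and rpl36. For rps7, a small-subunit protein known to bind Mdm2 in mammals, the 3 probes on the RefSeq mRNA gave means of 0.24, 0.26 and 0.27, and a probe on another GenBank entry gave -0.11. All of the 3 RefSeq probes were highest on replicate 1 (0.43 to 0.53). Restricted to probes with a RefSeq mRNA accession, rps7 was called (0.26, limma adjusted p = 0.047). The same restriction brought rps26l, whose protein sits at the mRNA exit of the small subunit, to a call on the opposite side (-0.20, adjusted p = 0.027), since its RefSeq probes had -0.18 and -0.22 and the remaining probe 0.012. With that restriction, chosen after the values were seen, 6 members were called, where 22.4% of the genes tested were.

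For rps24, 5 probes ran from -0.037 to 0.35, and the called one (0.53, 0.27 and 0.26 on replicates 1, 2 and 3) had no accession. Their average per array was nearly constant, at 0.14, 0.15 and 0.15, although single probes varied more, with SDs over the arrays of 0.05 to 0.19. Another probe without an accession gave -0.076, 0.17 and 0.30, a rise where the called one fell. The small SD of the gene's average therefore does not describe its probes. Rpl36 had 4 probes, 2 of 1 GenBank accession at 0.17 and 0.18, and the others at -0.016 and -0.019.

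**Figure D2:**
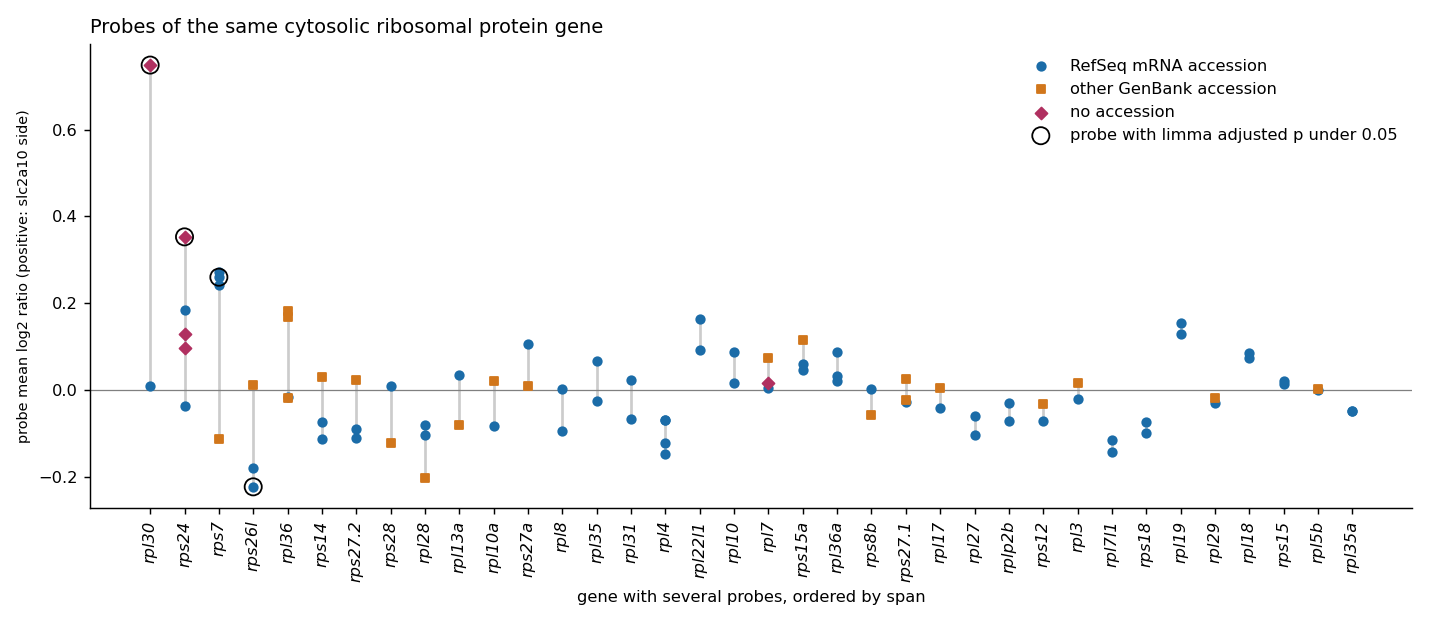
Mean log2 ratio (vertical axis, positive on the slc2a10 side) of each probe of the 36 genes with several probes, ordered by the span between a gene's lowest and highest probe; colour and shape give the kind of accession in the annotation, and circles mark called probes. The probes of most genes lie within 0.1 of each other, and rpl30 and rps24 hold called probes without an accession.

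Mean differences between paralogs were up to 0.20 in size, and none was tested. Rpl22l1 and rpl22 encode related large-subunit proteins. Rpl22l1 had 0.086, 0.12 and 0.18, and rpl22 -0.040, -0.16 and -0.034. The 2 genes lay on different sides on every array, and their difference was 0.20 ± 0.08 (SD of the 3 arrays), although neither was called. Rps26l minus rps26 was -0.10 ± 0.07, and rplp2b minus rplp2 was -0.063 ± 0.029, also with 1 sign throughout. Rpl7l1, which resembles a yeast assembly factor of the large subunit more than a mature ribosomal protein, stood at -0.13 ± 0.10 and rpl7 at 0.031 ± 0.038. Rpl7l1 minus rpl7 was -0.16 ± 0.13 and rpl5a minus rpl5b -0.095 ± 0.102, each negative on the 3 arrays. The difference of rps27.2 and rps27.1 was -0.051 ± 0.076, within its spread.

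Rpl5 and Rpl11 join the 5S rRNA, and when assembly stalls the same particle can bind Mdm2. Rpl5a had -0.11, -0.14 and -0.031 and rpl5b -0.049, 0.066 and -0.013, and neither was called. Rpsa, the small-subunit protein also known as the laminin receptor precursor, had -0.046, -0.21 and 0.0046 (mean -0.085 ± 0.113, not called). Of 20 measured genes whose human counterparts are mutated in Diamond-Blackfan anaemia, 1 was called, rps29 (5% of the list, against 19.3% of all named genes). Without replicate 2, 0 were called, where 10.0% of all named genes were. The list median was -0.015. Besides the genes already given, these included rpl35a (-0.047 ± 0.020), rps10 (-0.093 ± 0.046), rps26 (-0.030 ± 0.043), rpl15 (-0.076 ± 0.109), rps15a (0.074 ± 0.045) and rpl18 (0.079 ± 0.071). The remaining rpl27, rpl31, rpl35, rps27.1, rps27.2 and rps28 lay between -0.082 and 0.020.

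Of ribosomal proteins whose symbols fall outside the naming rule, 3 were measured and none was called, where 19.3% of all named genes were. So few genes say little about a share. Faua and faub, whose product releases the small-subunit protein Rps30, were at -0.058 ± 0.025 and -0.074 ± 0.116. Rack1, a scaffold protein on the small subunit, had -0.41, -0.091 and 0.43, the same order of arrays as rps2.

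The mitochondrial ribosome is made of different proteins, also encoded in the nucleus, and translates only the transcripts of the mitochondrial genome. Of 68 measured mrpl and mrps genes 31 were called, each on the slc2a10 side, and 60 had a mean above 0. The called share was 45.6%, against 11.1% of all named genes on that side and 19.3% on either side. The list median was 0.19, 0.15 and 0.21 on replicates 1, 2 and 3, which exceeded the median of the cytosolic members by 0.22, 0.22 and 0.19. Mrpl48 (0.44 ± 0.11, limma adjusted p = 0.0018), mrpl32 (0.39 ± 0.08), mrps34 (0.39 ± 0.02) and mrpl1 (0.38 ± 0.08) were the largest. Of the cytosolic members 3 lay above the mitochondrial list's median of 0.18, and these were the 3 called on the slc2a10 side. Among them, rpl30 was at 0.0092 with its RefSeq mRNA probe alone. Without replicate 2 the mitochondrial median was 0.20 with 17 called, where 10.0% of all named genes were. Without replicate 1 it was 0.18 with 25 called (20.7% of all named genes). Without replicate 3 it was 0.18 with 22 called (16.3% of all named genes). The lists were described side by side and their difference was not tested.

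**Figure D3:**
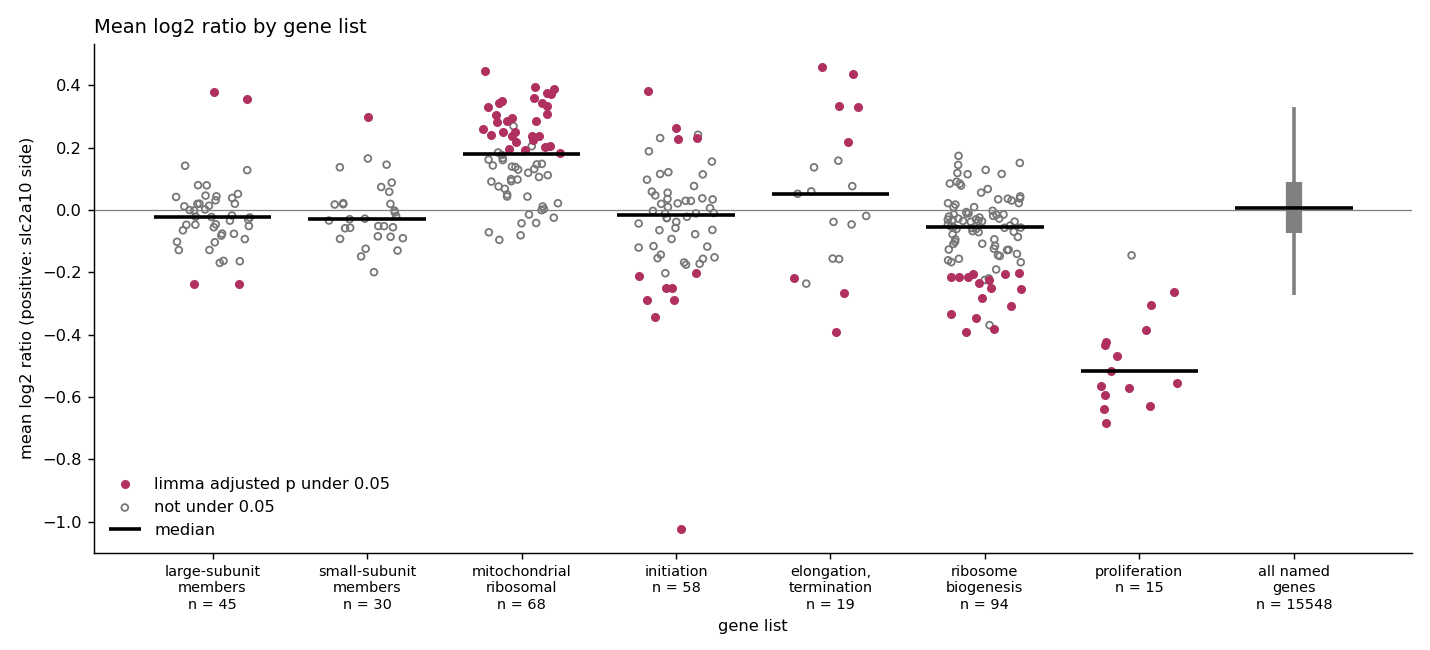
Mean log2 ratio (vertical axis, positive on the slc2a10 side) of each gene in the subunit groups and comparison lists, with called genes filled, others open and a bar at the median; for all named genes the thick bar spans the quartiles and the thin one the 5th to 95th percentiles. The cytosolic subunits lie around 0 with 5 called genes, the mitochondrial ribosomal genes lie mostly above 0, and the proliferation genes lie below 0.

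Factors that work with the ribosome had called genes on both sides. Of 58 genes named as initiation factors or their regulators 12 were called, 4 with slc2a10 and 8 against it, and the median was -0.017. This share of 20.7% was near the 19.3% of all named genes. Without replicate 2 there were 2, 1 a side, where 10.0% of all named genes were called. The largest was eif4ebp3l, which encodes a binding protein that blocks the cap-binding factor eIF4E and is itself controlled by mTOR, at -1.02 ± 0.06. Eif4e1c, of the cap-binding family, had 0.38 ± 0.12, and eif4a1b, of the helicase family, 0.26 ± 0.14. Eif3k (-0.34 ± 0.14), eif5a2 (-0.29 ± 0.02) and eif5 (-0.29 ± 0.08) were on the opposite side. Of 19 elongation and termination genes 8 were called (42.1%), 5 with slc2a10 and 3 against it. Without replicate 2 these were 4 and 1. Of the genes of the factor that brings aminoacyl-tRNA to the ribosome, eef1a1a (0.46 ± 0.12), eef1a2 (0.43 ± 0.12) and eef1a1b (0.33 ± 0.22) were called on the slc2a10 side, while eef1a1l1 (-0.16 ± 0.16) and eef1a1l3 (-0.038 ± 0.030) had negative means and were not called. Of its exchange factor genes, eef1b2 (-0.27 ± 0.02) and eef1db (-0.22 ± 0.07) were called on the opposite side, while eef1da (0.16 ± 0.11) and eef1g (0.14 ± 0.22) had positive means and were not called. The release factor gene etf1b was called at -0.39 ± 0.26. Of the other genes on this list, eef2l2 (0.33 ± 0.05) and gspt1 (0.22 ± 0.05) were called on the slc2a10 side. Gspt1l had -0.16 ± 0.07 and was not called.

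Genes for making ribosomes lay slightly to the opposite side. Of 94 ribosome biogenesis genes, which include the member rpl7l1, 16 were called, and the list median was -0.056. All 16 were negative (17.0%, against 8.16% of all named genes on that side and 19.3% on either side). Without replicate 2, 4 were called, where 10.0% of all named genes were. The largest were rsl24d1 (-0.39 ± 0.14), an assembly factor related to Rpl24, the helicase gene ddx21 (-0.38 ± 0.15), bxdc2 (-0.35 ± 0.15) and lyar (-0.34 ± 0.11). Of 11 genes of RNA polymerase I and its cofactors, which make the rRNA precursor, 1 was called (9.09%), ubtfl at 0.23 ± 0.08, and this call was lost without replicate 2, without replicate 3 and with a dye term (limma adjusted p = 0.15, 0.099 and 0.061). Of 9 other genes whose mammalian mRNAs carry a TOP motif, 5 were called (55.6%) and all these lay on the opposite side: hnrnpa1b (-0.56 ± 0.11), hnrnpa1a (-0.34 ± 0.10), vim (-0.31 ± 0.06), npm1a (-0.25 ± 0.13) and pabpc1a (-0.23 ± 0.04). The cytosolic ribosomal proteins had a median of -0.024 and these 9 genes one of -0.23, with 3 called without replicate 2. This list is a selection and holds none of the elongation factor genes given above. Among those, eef1a1a, eef1a2 and eef1a1b were called on the slc2a10 side and eef1b2 and eef1db opposite. The side seen here is that of the 9 listed genes only. Npm1a and npm1b are also among the 94 ribosome biogenesis genes, and npm1a is counted in both sets of calls. Likewise, eif6 is counted among the calls of both the initiation factors and the ribosome biogenesis genes. Polr1a and polr1b, which were not called, are on both the biogenesis and the RNA polymerase I lists.

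Among 24 genes that set growth or ribosomal protein output, 3 were called (12.5%, against 19.3% of all named genes). These were rheb (0.32 ± 0.20), the mTOR activator, and myca (0.19 ± 0.05) on the slc2a10 side and eif4ebp3l on the opposite side. Eif4ebp3l is also counted among the initiation factors above. The call of myca was lost without replicate 1, 2 or 3 and with a dye term (limma adjusted p = 0.070, 0.15, 0.13 and 0.15). Mtor itself had -0.041 ± 0.040 and larp1 0.0063 ± 0.080. Of 12 p53 pathway genes 3 were called (25%, against the same 19.3%). Of these baxa (0.24 ± 0.10) and tp53inp1 (0.26 ± 0.10) were on the slc2a10 side and btg2 (-0.32 ± 0.11) opposite. Without replicate 2, and likewise without replicate 3, only btg2 of these was called.

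Markers of dividing cells and of differentiated tissues differed on the same arrays. Of 15 proliferation genes 14 were called, each of them negative. That is 93.3%, against 8.16% of all named genes on that side and 19.3% on either side. Replicates 1, 2 and 3 put the median proliferation gene at -0.51, -0.53 and -0.45, and the lowest mean was -0.68 ± 0.13 for tyms. Of 14 tissue markers 9 were called on the slc2a10 side (64.3%, against 11.1% of all named genes). Examples were fabp10a of liver (1.92 ± 0.13) and neurod1 of neurons (1.14 ± 0.04), and 1 marker, krt4 of epidermis, was called opposite (-0.62 ± 0.20). Markers of 1 tissue did not all share a sign: the neuronal gene elavl3 had -0.14 ± 0.05 and the epidermal gene krt5 0.20 ± 0.22, both uncalled. The part of these differences in the values of the ribosomal protein genes was not tested.

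**Figure D4:**
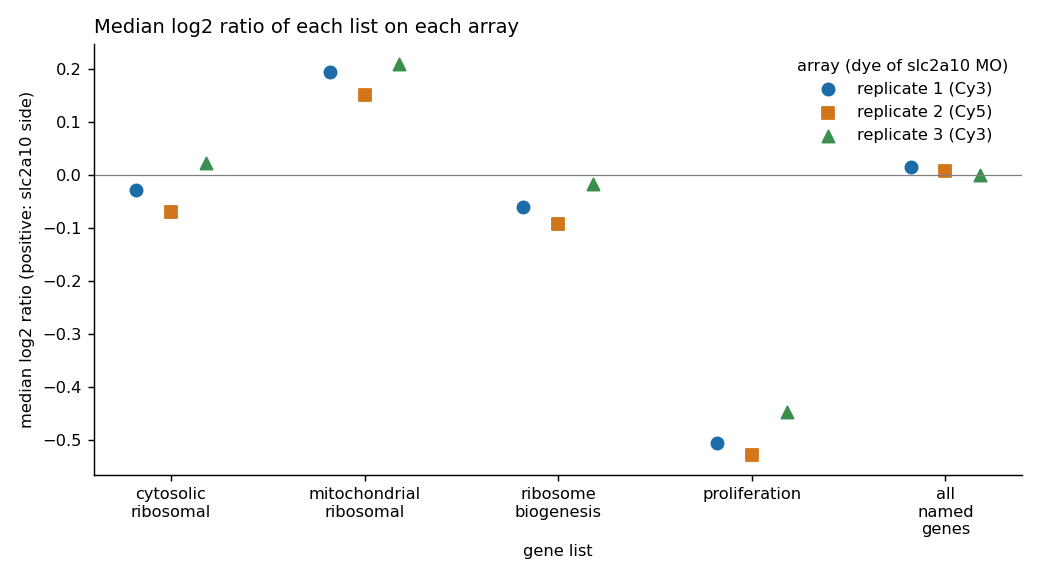
Median log2 ratio (vertical axis, positive on the slc2a10 side) of 4 gene lists and of all named genes, with 1 symbol per array and the dye of the slc2a10 MO sample in brackets. Cytosolic ribosomal proteins stay within 0.07 of 0 on every array, mitochondrial ribosomal proteins lie between 0.15 and 0.21, and proliferation genes between -0.53 and -0.45.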

How the data were processed

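The authors deposited 1 log ratio per feature and array, read here as log2. The largest size, 4.85, would be close to or beyond the limit of a scanner's range as log10. This 1 value cannot settle the base, so neither log10 nor a natural log could be told apart from log2. The submitters' processing notes name Partek. In the sources used here it was not given how background and dyes were corrected or which dye was divided by which. Signal and saturation are unknown. Replicate 2 correlated at -0.65 and -0.69 with replicates 1 and 3 (0.48 with each other), so its sign was turned. Of 43648 features, 45 control spots were left out. Symbols came from GEO's platform annotation, updated through the RefSeq table (GRCz12tu), in which all 75 members matched. A gene's probes were averaged within each array.

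The mean of the 3 arrays was tested against 0 with limma 3.58.1 in R 4.3.3 (lmFit, eBayes), a script also tested on simulated data. No permutation of 3 arrays' signs can reach the 0.05 threshold, so calls rest on pooled variance. The labels call the replicates biological. Named are called members (up to 12 a side), the 5 with the largest SD, paralogs, stalk, 5S and Diamond-Blackfan genes, rpsa, and up to 4 called genes of each other list and side, with others given for context. Members and lists were chosen with earlier results of these data known. Alternatives were the sign of replicate 2, a dye term, array weights, robust or no moderation, centring, probe summaries, unnamed probes, and leaving out each replicate. The number of arrays limits the precision.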

Additional observations from a re-analysis of the deposited data

How the results depend on the processing

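The median of the members and their count of called genes (main values -0.024 and 5, with 3 on the slc2a10 side and 2 opposite, and 8 called probes) were the same or moved little with robust eBayes, centred arrays and the median of a gene's probes (genes only for the last). With unnamed probes fitted as well the 5 genes also passed, where 10.6% of all named genes and unnamed probes together were called. A dye term kept the 5 genes, while the share of all named genes called fell from 19.3% to 14.3%. It left 4 probes and ended the calls of 6 other named genes (baxa, eif1axb, eif2b2, eif4a1b, myca and ubtfl). Array weights gave 18 member genes (6 and 12) and 14 probes, when 33.5% of all named genes were called. The ordinary t statistic gave 0 members and 2 of all named genes. At its unadjusted p under 0.05 there were 15 of 75 members and 3262 of all 15548 named genes. With the sign of replicate 2 as deposited, 0 members, 0 probes and 0 of all named genes were called by limma (0 members and 28 genes at an unadjusted p under 0.05), and the member median was 0.024. Leaving out each replicate in turn gave 2 to 6 genes (2 to 3 on the slc2a10 side, 0 to 3 opposite), 3 to 9 probes and a median between -0.065 and 0.0026. Both lowest counts and the highest median came without replicate 2. Shares of all probes are not given for the alternatives, so their probe counts are not set against a background. Probes with a RefSeq mRNA accession, chosen after seeing the data, gave 6 genes (3 and 3), without rpl30 and with rps7 and rps26l. The cause of these shifts was not tested. None of the 48 named genes that were called changed sign under any alternative. All 48 had 1 sign on the 3 arrays, so leaving out an array or changing the moderation could not reverse them. Rpl30 kept its sign only at 0.0092 with its RefSeq mRNA probe. Of the 48, 16 no longer passed without replicate 2, 4 without replicate 1 and 7 without replicate 3. No paired analysis was possible because each array already pairs 1 replicate with the same control pool.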
